A study of Mus musculus with 41 samples.

Results

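Lactylation of lysine 18 of histone H3 (H3K18la) was compared between mouse embryonic stem cells (mESC) kept in serum medium (mESC-ser) and in 2i medium (mESC-2i). Peaks of either list that shared at least 1 bp were merged, on chromosomes 1 to 19 and X, and each merged region was classed as serum-only, 2i-only or shared. This gave 24233 regions, of which 12138 were shared, 7540 were 2i-only and 4555 were serum-only. All H3K18la lists of the series, from 8 cell types, merged into 84821 regions. The comparison rests on 4 of the 41 samples, 2 per medium, which the authors pooled into 1 peak list per medium. The spread between replicates therefore cannot be seen, no p-value is given, and the intervals on shares (95%, Wilson, or Newcombe for a difference) cover counting error only.

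All stem cells came from E14, an established wild-type mESC line, and were processed as whole cells for CUT&Tag, which uses antibody-tethered Tn5 transposase to insert sequencing adapters beside the mark. The mESC-ser medium was DMEM with fetal bovine serum and LIF, the cytokine that sustains self-renewal. The mESC-2i medium was serum-free N2B27 with LIF, the MEK inhibitor PD0325901 and the GSK3 inhibitor CHIR99021. No mutation or transgene is described for either group, and a single line limits both groups as models. Peaks of H3K4me3, a promoter mark, and H3K27me3, the mark of Polycomb repression, were deposited for both media, and of H3K27ac, a mark of active promoters and enhancers, for mESC-ser, where the list came from 1 sample. No H3K27ac list for mESC-2i was analysed here.

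H3K18la carries a lactyl group on a lysine that can also be acetylated, and it is found at active promoters and enhancers. Serum supports a heterogeneous population in which part of the cells lean towards differentiation, whereas 2i holds cells close to the naive epiblast. MEK inhibition lowers ERK signalling, and GSK3 inhibition stabilises beta-catenin, the partner of TCF and LEF factors in Wnt signalling. In 2i, H3K27me3 is known to be redistributed away from many developmental promoters.

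Sequences of 200 bases at the signal maximum are shown for 6 regions of large signal, from each class, so that the elements searched further below can be seen in place. Capitals mark matches, on either strand, to elements of 8 factor families, and a sequence in lower case throughout holds none of them. Letters are from RefSeq GRCm38, forward strand.
Dlgap4 promoter, serum-only, chr2:156690920-156691119: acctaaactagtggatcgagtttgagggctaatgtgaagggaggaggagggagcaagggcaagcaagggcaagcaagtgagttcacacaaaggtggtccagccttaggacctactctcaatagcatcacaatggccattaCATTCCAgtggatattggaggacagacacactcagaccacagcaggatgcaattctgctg
Bcar1 distal, serum-only, chr8:111788258-111788457: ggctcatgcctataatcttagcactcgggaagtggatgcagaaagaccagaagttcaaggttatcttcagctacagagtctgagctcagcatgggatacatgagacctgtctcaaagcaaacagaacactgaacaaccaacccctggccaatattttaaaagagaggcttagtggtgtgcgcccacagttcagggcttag
Tpd52 distal, 2i-only, chr3:9105243-9105442: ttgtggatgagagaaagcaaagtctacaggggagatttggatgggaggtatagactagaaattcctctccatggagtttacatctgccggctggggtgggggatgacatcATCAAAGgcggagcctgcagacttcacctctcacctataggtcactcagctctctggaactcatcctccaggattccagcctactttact
Ktn1 distal, 2i-only, chr14:47825562-47825761: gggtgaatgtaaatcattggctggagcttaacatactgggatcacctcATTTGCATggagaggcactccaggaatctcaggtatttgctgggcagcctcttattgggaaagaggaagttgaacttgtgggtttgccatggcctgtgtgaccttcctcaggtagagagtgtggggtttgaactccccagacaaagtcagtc
Gm47144 promoter, 2i-only, chr9:46501942-46502141: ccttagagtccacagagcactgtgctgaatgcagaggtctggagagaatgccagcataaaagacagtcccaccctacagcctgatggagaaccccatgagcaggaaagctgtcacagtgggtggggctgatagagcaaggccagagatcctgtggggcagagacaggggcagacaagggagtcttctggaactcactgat
Tns3 distal, shared, chr11:8635871-8636070: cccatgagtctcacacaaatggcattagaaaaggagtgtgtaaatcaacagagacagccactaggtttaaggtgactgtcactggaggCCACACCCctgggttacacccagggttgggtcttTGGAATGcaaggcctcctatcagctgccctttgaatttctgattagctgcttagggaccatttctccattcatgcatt
The Dlgap4 window holds a TEAD element, the Tpd52 window a TCF and LEF element, the Ktn1 window an octamer and the Tns3 window a KLF and a TEAD element. Windows that touched an annotated exon were passed over in favour of the next region by signal. Windows in the regions at Ptprf, Gm21887 and near Ly6c2 were also extracted and are not shown here.

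The lists differed in extent before any site was compared. The serum list held 19057 peaks over 82.4 Mb and the 2i list 19908 peaks over 128 Mb, 1.55 times as many bases. Total signal, the fragment coverage summed over the bases of a peak, came to 2.63 times as much in the 2i list, and the median of the maximum signal, the highest coverage in a peak, was 63 in serum and 119 in 2i. The signal is not scaled for depth, so signal is compared only within a list, as a percentile of total signal. Total signal grows with the width of a peak as well as its height, so ranks by maximum signal can differ from those given. The lists do not state the depth, but the quality table of the study gives more reads for each of the 2i H3K18la samples than for either serum sample, and the part of depth in the extent of the lists was not tested. The stem cell markers Pou5f1, Sox2, Nanog, Zfp42, Sall4 and Utf1 carried a promoter peak in both lists. Of 13 markers of muscle, macrophages, adipocytes and fibroblasts, 11 carried none (84.6%, against 57.4% of all protein-coding genes), Pdgfra had a peak in both lists at percentiles 3.58 and 4.44, and Thy1 had a serum peak at percentile 0.609.

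Agreement between the media was closer for peaks of larger total signal. Such peaks can be wider, which by itself adds to the chance of an overlap. Overall 76.1% of serum peaks (75.5 to 76.7%) overlapped a 2i peak, and 62.1% of 2i peaks (61.4 to 62.8%) overlapped a serum peak. Of called bases, 77.6% of those in serum were called in 2i and 49.9% of those in 2i were called in serum. In the top 5 percentiles 99.6% of serum peaks and 98.1% of 2i peaks had a partner, against 50% and 32.4% in the lowest 5. Among the 5000 strongest peaks of each list, 238 serum peaks (4.76%) and 527 2i peaks (10.5%) had no peak anywhere in the other list. These peaks are called the strong medium-restricted regions from here on.

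**Figure D1:**
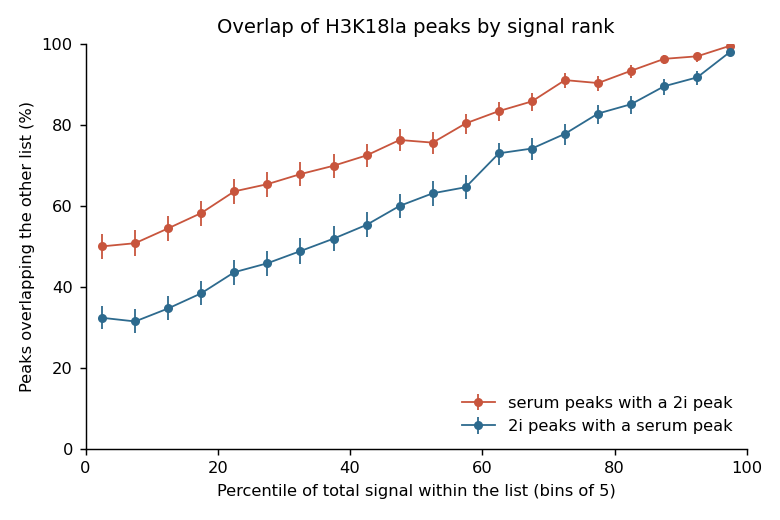
Share of H3K18la peaks that overlap the other medium's list (y axis, %) against the percentile of total signal within the own list (x axis, bins of 5), with 95% Wilson intervals. Both curves climb from the weakest bins (50% for serum, 32.4% for 2i) to nearly all peaks in the strongest (99.6% and 98.1%).

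When only the 5000 peaks of largest total signal per list were merged, 6529 regions resulted, with 2948 shared (45.2%), 2009 2i-only and 1572 serum-only. Most of the regions so restricted were still called in the full list of the other medium, 84.9% of the serum-only ones (83.0 to 86.5%) and 73.8% of the 2i-only ones (71.8 to 75.6%). For most of these regions the media thus differed in rank and not in presence of a call. Reducing the 2i list by signal to the bases of the serum list left 10344 serum-only and 1215 2i-only regions, but that setting removes 2i peaks alone, which by itself leaves serum peaks without a partner.

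Over all regions, shared ones were the widest and the most often at promoters. A shared region is the union of the peaks it holds from both lists, which by itself adds to its width and to the chance that it reaches a promoter. Their median width was 5978 bp, against 3798 bp for 2i-only and 2624 bp for serum-only regions, and the widest spanned 81392 bp. A promoter, here 2000 bp on either side of an annotated transcription start site (TSS), lay in 59.0% of shared regions (58.1 to 59.8%), 39.5% of serum-only regions (38.0 to 40.9%) and 37.3% of 2i-only regions (36.2 to 38.4%). The promoter share of shared regions exceeded that of regions called in 1 medium by 20.8 percentage points (19.6 to 22.1). Intergenic sites made up 27.1% of serum-only, 33.1% of 2i-only and 20.8% of shared regions, and introns 22.1%, 19.1% and 11.7%. Shared regions lay in the upper part of both lists, at a median percentile of 61.1 in serum and 63.8 in 2i. Serum-only regions had a median percentile of 27.2 in their list and 2i-only regions 30.5 in theirs.

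In shared regions the media placed the signal at nearly the same position but spread it differently. Of these regions, 10192 (84.0%) held 1 peak of each list, whose maxima lay a median of 60 bp apart, and within 500 bp in 72.2%. The 2i peak was the wider in 77.0% of these pairs, with a median width ratio of 1.27. In 1729 regions a single 2i peak joined several serum peaks, and in 133 a single serum peak joined several 2i peaks. The 2i list also had the larger signal, whose part in the wider calls was not tested.

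Regions called in 1 medium were often far from any call in the other. Of serum-only regions 26.2% (25.0 to 27.5%) lay within 5000 bp of a 2i peak and 26.8% (25.6 to 28.2%) over 50000 bp away, with a median of 16472 bp. For 2i-only regions the shares were 15.9% (15.1 to 16.7%) and 39.4% (38.3 to 40.5%), with a median of 30104 bp. Distal 2i-only regions also lay farther from genes, at a median of 36024 bp from the nearest protein-coding TSS against 22150 bp for distal serum-only and 26709 bp for distal shared regions.

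Serum-only and 2i-only regions differed in H3K27me3 of 2i cells. A 2i H3K27me3 peak overlapped 22.5% of serum-only regions (21.4 to 23.8%), 6.78% of shared regions (6.35 to 7.24%) and 3.38% of 2i-only regions (3.00 to 3.81%). The difference between 2i-only and serum-only regions was -19.2 percentage points (-20.5 to -17.9), although 2i-only regions were wider. At promoters the shares were 31.7% of serum-only and 5.76% of 2i-only regions, and at distal sites 16.6% and 1.97%. Sites that carried H3K18la in serum alone were therefore under H3K27me3 in 2i several times as often as sites with H3K18la in 2i alone.

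Serum H3K27me3 followed the classes less. It overlapped 19.1% of serum-only regions (17.96 to 20.2%), 14.5% of shared and 10.98% of 2i-only regions (10.3 to 11.7%), a difference of -8.10 percentage points between 2i-only and serum-only regions (-9.45 to -6.77). The serum H3K27me3 list covered 86.6 Mb and the 2i H3K27me3 list 145 Mb, and the part of this extent in the overlaps was not tested. Sorting regions by both H3K27me3 lists, 656 serum-only regions carried the mark in both media, 371 in 2i alone and 213 in serum alone. Of 2i-only regions, 204 carried it in both media, 51 in 2i alone and 624 in serum alone. Regions with H3K27me3 in a single medium thus tended to have it in the medium that lacked H3K18la. Shared regions also had it more often in serum alone (1125) than in 2i alone (185). With the 5000 peaks of largest maximum signal per list, the serum H3K27me3 difference changed sign to 1.83 (-0.24 to 3.87), while that of 2i H3K27me3 was -8.97 (-10.6 to -7.42).

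Serum H3K27ac separated the classes at distal sites. It overlapped 17.5% of distal serum-only regions (16.1 to 18.98%) and 1.76% of distal 2i-only regions (1.42 to 2.17%), against 40.4% of distal shared regions. At promoters the serum-only share (35.4%) exceeded the 2i-only share (31.5%) by 3.93 percentage points (1.14 to 6.73). Over all regions the difference was 11.7 points (10.3 to 13.2), and 41.9 points (38.8 to 44.8) with the 5000 strongest peaks per list. Distal sites with H3K18la in 2i alone thus rarely carried serum H3K27ac, and most distal serum-only sites did not carry it either.

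H3K4me3 of 2i cells overlapped 25.8% of 2i-only regions and 20.7% of serum-only regions, 5.09 percentage points apart (3.54 to 6.61). The gap was 11.4 points at promoters (8.50 to 14.4), where 54.8% of 2i-only and 43.4% of serum-only regions carried it. Serum H3K4me3 overlapped 38.8% and 37.8% of the same promoter regions, a difference within counting error. The serum H3K4me3 list held 11002 peaks and the 2i H3K4me3 list 19362, and the part of this in the overlaps was not tested. With equal called bases in both lists the 2i H3K4me3 difference over all regions turned to -6.27 (-8.89 to -3.53). No other stem cell mark was called in 67.5% of 2i-only, 51.0% of serum-only and 24.9% of shared regions.

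**Figure D2:**
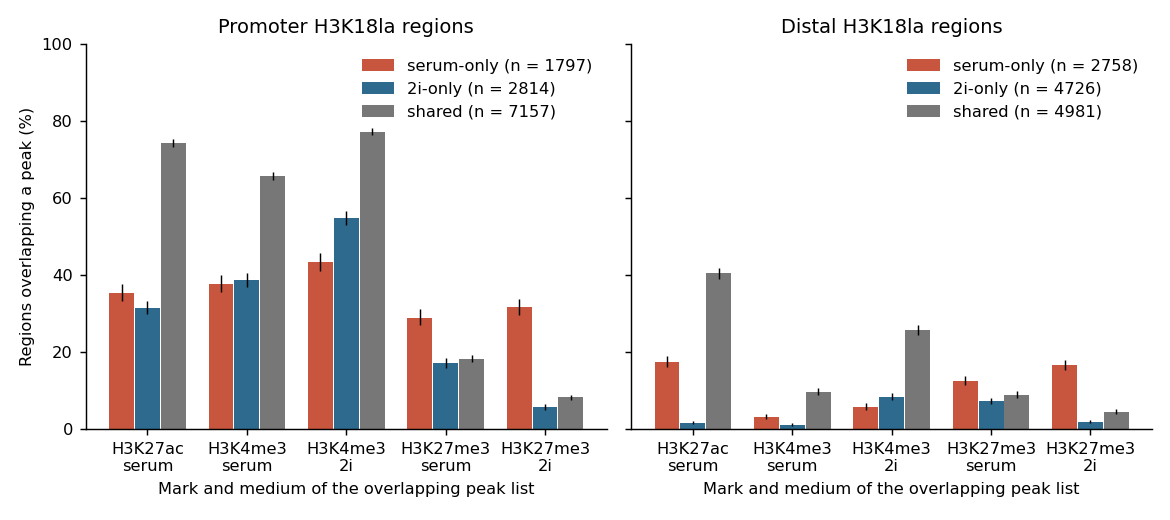
Share of H3K18la regions (y axis, %) that overlap a peak of 5 other stem cell lists (x axis), for promoter regions on the left and distal regions on the right, with 95% Wilson intervals. The serum-only bars (red) stand above the 2i-only bars (blue) for 2i H3K27me3 (31.7% against 5.76% at promoters, 16.6% against 1.97% at distal sites) and for distal serum H3K27ac (17.5% against 1.76%).

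For serum H3K27ac and 2i H3K27me3 the strong medium-restricted regions lay further apart than all regions. Of the 238 serum regions, 58.4% (52.1 to 64.5%) carried serum H3K27ac and 43.7% (37.5 to 50.05%) carried 2i H3K27me3. Of the 527 2i regions, 5.88% (4.17 to 8.23%) carried serum H3K27ac and 1.90% (1.03 to 3.46%) carried 2i H3K27me3, while 35.9% (31.9 to 40.0%) had 2i H3K4me3 and 6.83% (4.97 to 9.31%) serum H3K4me3. In the serum set H3K4me3 was called at 23.1% (18.2 to 28.9%) from 2i and 27.7% (22.4 to 33.7%) from serum. Serum H3K27me3 was present at 26.9% and 13.5% of them. Promoters made up 44.96% of the serum set (38.8 to 51.3%) and 37.8% of the 2i set (33.7 to 42.0%).

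The strongest serum-only promoter region lay on Dlgap4, which encodes a postsynaptic scaffold protein, at chr2:156684805-156698662. Its maximum signal was 149 and its percentile 97.6, and it overlapped serum H3K27ac and 2i H3K27me3. Next came Gfod1 at percentile 96.3, and Emb, the gene of the cell surface glycoprotein embigin, which had a maximum of 210 at percentile 96.1. Krt17, a keratin gene of epithelia, had a maximum of 270 at percentile 94.5 and lay 750 bp from the nearest 2i peak. Coro2b, of the actin-binding coronins, and Kifc3, a kinesin gene, followed at percentiles 93.1 and 92.6. The antisense gene Gm11712 and the lincRNA gene Gm45075 completed the 8 promoter regions of largest total signal. The Gm11712 region was 17314 bp wide with a maximum of 60, below the serum list median of 63. Of the 8 regions, Dlgap4, Gfod1, Krt17, Gm11712, Coro2b and Kifc3 overlapped 2i H3K27me3. It lay at 31.7% of all serum-only promoter regions and 11.3% of all promoter regions. Of these 6 only Kifc3 also carried H3K27me3 in serum.

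At distal sites the strongest serum-only region lay in an intron of Cfdp1, 38675 bp from the TSS of Bcar1, an adaptor of focal adhesions, at chr8:111782484-111793880. It had a maximum of 111 at percentile 96.4. The second, over an exon of the receptor phosphatase gene Ptprf at chr4:118270713-118278662, had a maximum of 205. Further sites were nearest to Cdc42ep4, Rbm5, Zfp213, Car4, Grifin and Myof, at percentiles 91.3 to 94.5. Of the 8 distal regions, 6 overlapped serum H3K27ac, against 17.5% of all distal serum-only regions and 20.7% of all distal regions. Those nearest Rbm5 and Zfp213 were the others. The Zfp213 region lay 87 bp from a 2i peak.

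The 2i-only promoter regions of largest signal were mostly at starts of noncoding transcripts. The strongest, at the lincRNA gene Gm47144 (chr9:46494821-46520888), had a maximum of 336 at percentile 98.0 and lay 174835 bp from the nearest protein-coding TSS. Kiss1, the gene of the kisspeptin hormone, shared a region of 30843 bp with Gm28040 at percentile 97.5. Ido2, for a tryptophan-degrading enzyme, had a maximum of 728 at percentile 97.3 at the start of a transcript not annotated as coding. The uncharacterised gene 2510009E07Rik had a maximum of 363. Of the 8 regions, 8 overlapped 2i H3K4me3 and 5 serum H3K27me3, against 54.8% and 17.2% of all 2i-only promoter regions and 66.7% and 19.7% of all promoter regions. None overlapped 2i H3K27me3 or serum H3K27ac, which lay at 5.76% and 31.5% of 2i-only promoter regions and 11.3% and 58.2% of all promoter regions.

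The strongest distal 2i-only region lay at chr3:9096498-9117099, 91775 bp from the TSS of Tpd52, with a maximum of 459 at percentile 98.8. The second overlapped an exon of the lincRNA gene Gm35360, 154178 bp from Ktn1, with a maximum of 458. Dpp6 and Tenm3, neuronal membrane protein genes, held intronic domains of 37879 and 32783 bp, and a further region lay 86030 bp from Max, the dimerisation partner of Myc. None of the 8 distal regions overlapped serum H3K27ac, near the 1.76% of all distal 2i-only regions, against 20.7% of all distal regions. Over all strong medium-restricted regions the median width was 6432 bp in serum and 9921 bp in 2i.

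Several shared regions ranked very differently in the lists, although the median absolute change over shared regions was 13.5 percentile points and 941 of 12138 differed by over 50. Taking the strongest peak of each list in a shared region, the largest difference towards 2i was in Sh3pxd2a, for a scaffold of invadopodia, from percentile 4.15 in serum to 97.0 in 2i. Ly6a, which encodes the surface antigen Sca-1, went from 4.90 to 97.5, Tnpo1, for a nuclear import receptor, from 4.31 to 96.5, and a site near Zfp706 from 0.409 to 92.4. Towards serum, Myrf, a membrane-bound transcription factor, stood at 97.9 in serum and 0.698 in 2i and carried 2i H3K27me3. Sites near Zfp281 and Lao1 and within Phf21a stood at 91.6 to 95.4 in serum and 1.90 to 5.31 in 2i. Ranks of this kind were read in only 1 pooled list per medium.

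The 4 shared regions with the best ranks in both lists were at Gm21887 on chromosome X, near Ly6c2, at Irf2bpl and at Gm10800. Irf2bpl was a domain of 74090 bp with maxima of 193 and 452. The other 3 were of another kind, with maxima of 2535 to 8746 in serum and 6006 to 14013 in 2i, far above the list medians, and peaks in at least 4 of 5 other stem cell lists. Of the 4 regions, that near Ly6c2 was also called in 5 of 6 other cell types and the others in 6. The study describes a blacklist filter after peak calling, but whether the deposited lists had passed it is not stated, and its part in these calls was not tested.

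At gene level, 28.6% of 21755 protein-coding genes had an H3K18la peak at a promoter in both media, 4.79% (1041 genes) in serum alone, 9.19% (1999 genes) in 2i alone and 57.4% (12484 genes) in neither. Among the serum-only genes 46.4% carried 2i H3K27me3 at a promoter, against 11.5% of 2i-only genes, 13.2% of genes with H3K18la in both media and 26.97% of genes with it in neither. Serum H3K27me3 was at 43.3%, 23.8%, 21.8% and 28.8% of these groups. Serum H3K27ac was at 48.1% of serum-only and 52.4% of 2i-only genes, against 40.2% of all protein-coding genes. It was at 82.8% of genes with H3K18la in both media and 16.3% of genes with it in neither. H3K18la at a promoter in at least 1 of the 6 other cell types was found for 75.3% of serum-only, 82.8% of 2i-only and 87.8% of shared genes. For genes with it in neither medium the share was 47.2%.

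Pluripotency genes kept H3K18la in both media. All 12 core genes had a promoter peak in both lists, against 28.6% of all protein-coding genes, at median percentiles of 97.8 in serum and 94.9 in 2i. Pou5f1 (Oct4), which encodes the central pluripotency factor, had a maximum of 354 in serum at percentile 99.1 and of 629 in 2i at percentile 98.6. Nanog stood at percentiles 98.7 and 99.3 and Sox2 at 98.7 and 97.0. Lin28a, for a repressor of let-7 microRNAs, and Dppa4 stood lower in 2i, from 83.0 to 54.7 and from 80.7 to 59.1. Of the 12, 10 stood lower in 2i, with a median change of -2.50 points against 0.263 over the 6231 protein-coding genes with peaks in both lists.

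All 20 naive pluripotency genes also had promoter peaks in both lists. Their median percentile was 88.4 in serum and 93.5 in 2i, while the median change per gene was 1.20 points. In all 11 of the 20 (55%) stood higher in 2i, close to the 51.04% of all genes called in both media, whose median change was 0.263 points. Gbx2, a homeobox factor that sustains the naive state, stood at 75.7 in serum and 94.7 in 2i, and Tet2, which oxidises methylated cytosine, at 84.9 and 99.5. Esrrb, a nuclear receptor of the naive network, was near the top of both lists (99.9 and 99.9), as were Dppa5a and Fgf4. Klf4 stood at 74.3 and 63.8. Of distal regions with one of these genes as the nearest, 28 were 2i-only, 10 serum-only and 25 shared, a split close to the 37.9%, 22.1% and 40.0% of all 12465 distal regions. At 7 of the 20 promoters (35%) serum H3K27me3 was called, and at 1 (5%, Esrrb) 2i H3K27me3, against 21.8% and 13.2% of genes with H3K18la in both media.

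Formative and primed genes, which are induced as cells leave the naive state, were more divided. Of 18 genes, 12 had promoter peaks in both lists (66.7%, against 28.6% of all protein-coding genes), Fgf15 and Lin28b in serum alone (11.1%, against 4.79%), Cdh2 in 2i alone (5.56%, against 9.19%), and Fgf5, Pou3f1 and Sox3 in neither (16.7%, against 57.4%). Of the 12 genes 8 stood lower in 2i, with a median change of -1.49 points. The de novo DNA methyltransferase gene Dnmt3b stood at 82.6 in serum and 45.4 in 2i and Dnmt3a at 96.2 and 72.5. Otx2, a factor of the formative state, stood at 67.0 and 46.9, and Tead2, which binds DNA with YAP, at 87.0 and 12.2. The opposite order was seen for Zic2, at 55.3 and 82.6, and Myc, at 80.1 and 91.1. Nearest distal regions numbered 18 serum-only, 7 2i-only and 15 shared, against 22.1%, 37.9% and 40.0% of all distal regions.

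Wnt and beta-catenin response genes leaned to 2i. Of 19 genes, 9 had promoter peaks in both lists (47.4%, against 28.6% of all genes), Sp5, Znrf3 and Dkk1 in 2i alone (15.8%, against 9.19%), none in serum alone (against 4.79%) and 7 in neither (36.8%, against 57.4%). Sp5, a direct Wnt target that encodes a zinc finger factor, had a maximum of 210 at percentile 89.6 in 2i, and Dkk1, a secreted Wnt inhibitor, had 150 at percentile 79.0. Cdx1, a caudal homeobox target of Wnt, stood at 4.56 in serum and 91.7 in 2i, Sp8 at 10.6 and 69.9, and Tnfrsf19 at 30.9 and 86.1. Axin2, the feedback inhibitor of the pathway, stood at 83.5 and 93.1 and Lef1 at 90.3 and 96.5. Of the 9 genes with peaks in both lists 8 stood higher in 2i, and the median change was 9.64 points.

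The surroundings of the Wnt genes held 24 distal 2i-only regions, 3 serum-only and 12 shared ones, against 37.9%, 22.1% and 40.0% of all distal regions. Serum H3K27me3 was called at 17 of the 19 promoters, against 27.04% of all protein-coding genes, 2i H3K27me3 at 7, against 22.5%, and 2i H3K4me3 at 19, against 61.8%. T (brachyury), a primitive streak factor, had no promoter H3K18la in either list and 2 distal 2i-only regions. Tnfrsf19 had 5 distal 2i-only regions and Nkd1, an inhibitor of Dishevelled, had 3 without a promoter peak.

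ERK response genes mostly had peaks in both media. Promoter peaks were in both lists for 17 of 20 genes (85%, against 28.6% of all), in 2i alone for Dusp5 (5%, against 9.19%) and in neither for Spry1 and Fosl1 (10%, against 57.4%). The feedback phosphatase gene Dusp6 stood at 90.2 in serum and 82.3 in 2i, Dusp4 at 87.1 and 74.98, Spry4 at 93.1 and 76.4, and Phlda1 at 66.02 and 28.4. By percentile of maximum signal Dusp6 was level (91.6 and 91.5) and Spry4 was higher in 2i (59.8 and 63.5). Dusp4 (63.3 and 48.6) and Phlda1 (65.7 and 22.8) were lower in 2i by that measure too. The ETS factor gene Etv4 stood at 91.1 and 75.9, while Etv5 was near the top of both lists (99.8 and 99.6). Spry2 was higher in 2i, at 75.2 and 89.0. By total signal, 12 of 17 stood lower in 2i, with a median change of -0.31 points. By maximum signal Spry4, Spred2, Junb, Ier2 and Ccnd1 instead stood higher in 2i, and Spred1 and Epha2 lower. Nearest distal regions numbered 16 serum-only, 17 2i-only and 25 shared, against 22.1%, 37.9% and 40.0% of all distal regions. Among them Dusp4 had 4 serum-only ones and Spred2, an inhibitor of the pathway, had 4 2i-only and 7 shared ones.

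Genes of BMP and Nodal signalling leaned to serum. Of 12 genes, 10 had peaks in both lists (83.3%, against 28.6% of all), 1 in serum alone and 1, Bambi, in 2i alone (8.33% each, against 4.79% and 9.19%). The Nodal antagonist Lefty1 had maxima of 214 and 139, at percentiles 99.4 and 63.1, and Lefty2 stood at 98.7 and 93.6. The BMP target Id1 stood at 95.8 and 74.7 and Id2 at 89.6 and 69.0, whereas Bmp4 itself stood at 81.4 and 89.5. Of the 10 genes 8 stood lower in 2i (median change -4.96). Nearest distal regions numbered 11 serum-only, 5 2i-only and 17 shared, against 22.1%, 37.9% and 40.0% of all distal regions. Among the inhibitory SMAD genes, Smad6 had 4 serum-only and no 2i-only ones, and Smad7 had 1 and 4.

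Sterol and fatty acid synthesis genes showed the largest median change among the lists with at least 8 genes in both media, 19.3 points, with 10 of 11 higher in 2i. Scd2, a stearoyl-CoA desaturase gene, stood at 68.2 in serum and 99.95 in 2i (maxima 100 and 665). Fasn, for fatty acid synthase, stood at 80.9 and 97.9. Sqle, for squalene epoxidase, had a peak in 2i alone at percentile 98.0, as did Idi1 at 7.86. In all, 3 of the 16 genes had a peak in 2i alone (18.8%, against 9.19% of all) and none in serum alone (against 4.79%). Serum H3K27ac was called at 15 of the 16 promoters, against 40.2% of all protein-coding genes and 82.8% of those with H3K18la in both media, to which 11 of the 16 belong.

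By total signal, glycolysis and lactate genes went the other way by a small amount. Of 19 genes, 16 had peaks in both lists (84.2%, against 28.6% of all), Pfkl and Pgam1 in serum alone (10.5%, against 4.79%) and the lactate transporter gene Slc16a1 in 2i alone (5.26%, against 9.19%). The lactate dehydrogenase genes Ldha and Ldhb stood at 95.05 and 93.1 in serum and at 86.7 and 69.9 in 2i, and Slc16a3, a lactate exporter gene, at 93.5 and 40.6. Hk2, for hexokinase, was higher in 2i (86.3 and 99.5), as was Gpi1 (52.1 and 84.5). In all 11 of 16 stood lower in 2i, with a median change of -4.23 points. By maximum signal Aldoa, Tpi1, Gapdh and Pdk1 instead stood higher in 2i, and Hk1 lower.

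Lineage regulators were spread over the classes. Of 20 genes, 6 had promoter peaks in both lists (30%, near the 28.6% of all genes), Foxa2, Sox7, Hand1 and Neurog3 in serum alone (20%, against 4.79% of all genes), Eomes, Sox17, Gata6, Tfap2a and Sox1 in 2i alone (25%, against 9.19%) and 5 in neither (25%, against 57.4%). Most of the single-medium peaks were weak. Exceptions were Hand1, of trophoblast and heart, at percentile 80.2 with 4 distal serum-only regions, Neurog3, of endocrine pancreas, at 83.5, and Tfap2a, of surface ectoderm and neural crest, at 82.9. H3K27me3 was called at 19 of these promoters in serum and 17 in 2i, against 27.04% and 22.5% of all protein-coding genes. In this list 2i H3K27me3 was called at the promoters of all 4 serum-only and all 5 2i-only genes.

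Extracellular matrix and epithelial genes held 5 serum-only promoters of 13 (38.5%, against 4.79% of all genes) and no 2i-only one. They were Lamb1, Col4a1 and Col4a2, genes of the basement membrane, and the keratin genes Krt18 and Krt19. Col4a1 and Col4a2 are transcribed from a common promoter and share 1 peak, at percentile 15.1, so they count as a single site. Krt18 had the highest of these percentiles, 73.3, while its partner Krt8 stood at 62.2 in serum and 94.0 in 2i. Cdh1, for E-cadherin, was near the top of both lists (99.7 and 99.7). All 5 serum-only genes, which have 4 separate peaks, carried 2i H3K27me3, against 46.4% of all serum-only protein-coding genes. The 8 genes called in both media stood higher in 2i in 6 cases, with a median change of 5.30 points.

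Germ-line genes had 14 of 16 promoters without H3K18la (87.5%, against 57.4% of all), the exceptions being Sycp3 in serum and Rpl10l in 2i (6.25% each, near the 4.79% and 9.19% of all genes), and none of 5 genes of the 2-cell stage had a peak. All 9 DNA methylation genes had peaks in both lists, against 28.6% of all, with 6 lower in 2i (against 3051 of the 6231 genes called in both) and a median change of -13.6 points. Uhrf1, which recruits the maintenance methyltransferase, stood at 82.9 in serum and 97.8 in 2i, opposite to Dnmt3a and Dnmt3b. Of 16 serum response and YAP target genes 10 had peaks in both lists (62.5%, against 28.6% of all) and 1, Vcl, in 2i alone (6.25%, against 9.19%), with none in serum alone (against 4.79%). Of 9 housekeeping genes 8 had peaks in both lists (88.9%, against 28.6%), with a median change of -1.54 points, against 0.263 over all genes called in both.

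**Figure D3:**
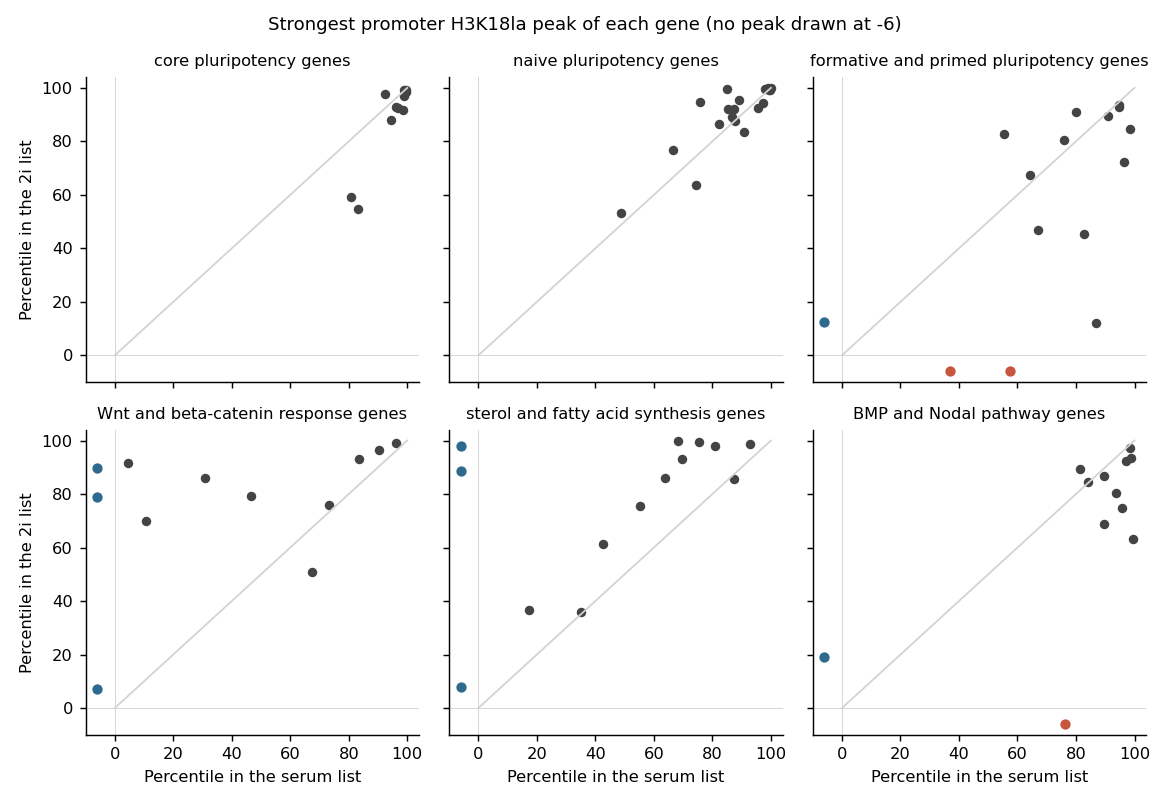
Percentile of total signal of the strongest promoter H3K18la peak of each gene in the serum list (x axis) and the 2i list (y axis) for 6 gene lists, with the diagonal in grey, and genes without a peak in 1 list drawn at -6 on that axis in red (serum alone) or blue (2i alone). Genes without a peak in either list are not drawn. Wnt genes (8 of 9) and sterol genes (10 of 11) called in both lists lie mostly above the diagonal, and BMP and Nodal genes (8 of 10) mostly below.

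Some genes collected many distal regions of 1 class, chosen here after their counts were seen. Casz1 and Zfp423, zinc finger factors of development, each had 9 distal serum-only regions and no 2i-only one, and both had a promoter peak in serum alone. Gse1 had 8 and no 2i-only one. On the 2i side Tbl1xr1, a subunit of the NCoR corepressor complex, had 12 distal 2i-only and 1 serum-only region. Tgfbr2, a receptor for TGF-beta, had 12 and none, with a promoter peak in 2i alone. Arid5b had 9 and none. Nearest TSS was used for these counts, which does not show that a region acts on that gene.

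A sequence element that differed between the classes was that of TCF and LEF factors. The letters ATCAAAG, on either strand in the 500 bp at the signal maximum, were found in 11.9% of distal 2i-only regions (11 to 12.8%), 5.18% of distal serum-only regions (4.42 to 6.08%), 8.49% of distal shared regions (7.75 to 9.30%) and 9.05% of all distal regions. Among strong distal regions they were in 15.2% of the 2i set (11.8 to 19.5%) and 3.05% of the serum set (1.19 to 7.59%). At promoters they were in 8.39% of 2i-only regions (7.42 to 9.47%) and 4.79% of serum-only regions (3.89 to 5.87%), against 6.52% of all promoter regions, and in the strong sets in 17.1% (12.5 to 22.9%) and 4.67% (2.01 to 10.5%). The median GC content of the windows was 47.6% in distal 2i-only and 50.4% in distal serum-only regions. Within windows of 45 to 55% GC the element was in 12.2% (11.1 to 13.5%) and 5.97% (4.97 to 7.16%), a gap of similar size.

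Other elements differed less at distal sites. The octamer ATTTGCAT of POU factors was in 5.37% of 2i-only and 3.70% of serum-only regions, against 4.60% of all. Within windows of 45 to 55% GC it was in 4.90% (4.18 to 5.73%) and 3.87% (3.07 to 4.86%), intervals that overlapped. The KLF element GGGTGTGG was in 12.04% (11.1 to 12.998%) and 10.04% (8.98 to 11.2%), against 11.8%, and its intervals overlapped too, whereas within these GC windows the shares of 13.9% (12.7 to 15.2%) and 11.001% (9.64 to 12.5%) had intervals that did not. For the AP-1 element TGANTCA (19.4% and 18.5%, against 18.9% of all), the TEAD element CATTCCA (9.75% and 9.57%, against 9.65%) and the ESRRB element TCAAGGTCA (3.43% and 3.08%, against 3.49%) the intervals of 2i-only and serum-only regions also overlapped. So did those of the same classes for the STAT element TTCCNGGAA (2.14% and 1.45%, against 2.09% of all) and the ETS element CCGGAAGT (0.994% and 0.761%, against 0.971%). Overlapping intervals do not show that shares are equal, and no interval on the difference was computed for these elements. In 2i-only and serum-only promoter regions the ETS element was in 4.02% and 1.89%, against 3.12% of all promoter regions. The octamer was in 4.05% (3.38 to 4.84%) and 2.39% (1.78 to 3.21%) of the same classes, against 2.97%. In the strong promoter sets it was in 7.54% (4.62 to 12.1%) and 1.87% (0.514 to 6.56%). The AP-1 (11.8% and 14.1%) and TEAD (7.18% and 7.96%) elements went the other way at promoters. A match is a description of the letters and does not show binding.

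**Figure D4:**
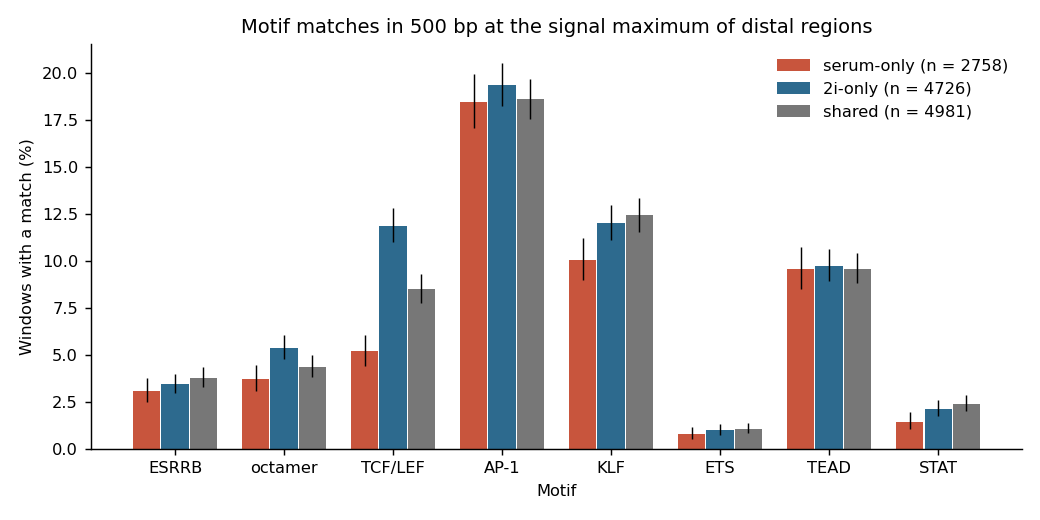
Share of distal H3K18la regions (y axis, %) whose 500 bp at the signal maximum hold a match to each of 8 elements (x axis), for serum-only (red), 2i-only (blue) and shared (grey) regions, with 95% Wilson intervals. The TCF/LEF bars are the furthest apart, 11.9% of 2i-only against 5.18% of serum-only regions, while AP-1 and TEAD bars are level.

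H3K18la of the 6 other cell types of the series, which are of muscle, macrophage and fat, overlapped fewer of the medium-restricted regions. At least 1 of these cell types had a peak at 66.4% of shared regions (65.5 to 67.2%), 48.9% of serum-only regions (47.4 to 50.3%) and 44.2% of 2i-only regions (43.1 to 45.3%). At distal sites the shares were 49.9%, 42.5% and 33.1%. By cell type the order differed, as gastrocnemius muscle overlapped 28.98% of serum-only and 23.6% of 2i-only regions, adipocytes 21.1% and 20.9%, and bone marrow-derived macrophages 8.83% (8.04 to 9.68%) and 10.5% (9.83 to 11.2%). Shared regions were also the widest, which by itself adds to such overlap. The lists of bone marrow-derived macrophages and myoblasts came from 1 sample each. By the study, adipocytes came from female AdipoCre-NuTRAP mice and gastrocnemius muscle from female C57Bl6/J mice. The other macrophages were sorted from muscle after hindlimb ischemia.

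Chromosomes did not take part evenly. Of regions called in 1 medium, the serum-only share was 53.0% on chromosome 11 (49.8 to 56.2%) and between 22.8% (X, 18.03 to 28.4%) and 44.0% (chromosome 5) on the others. Chromosome 11 held 487 serum-only, 432 2i-only and 1307 shared regions, and serum-only regions outnumbered 2i-only ones from 60 to 120 Mb. The chromosome also held a larger share of all peaks in the serum lists, 11.02% for H3K18la, 12.8% for H3K27ac, 10.3% for H3K4me3 and 10.1% for H3K27me3, than in the 2i lists, where it was 8.96%, 8.53% and 8.46% for H3K18la, H3K4me3 and H3K27me3. In the 6 other cell types it held 5.31 to 6.85% of H3K18la peaks. An unequal copy number of the chromosome was not tested. Without it the regions were 4068 serum-only and 7108 2i-only, and the 2i H3K27me3 difference was -18.6 points.

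**Figure D5:**
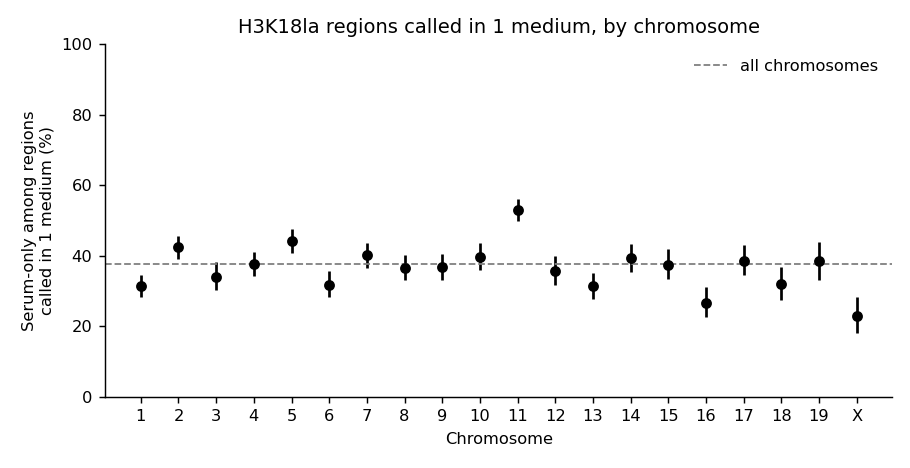
Serum-only regions as a share of the H3K18la regions called in a single medium (y axis, %) on each chromosome (x axis), with 95% Wilson intervals, and the share over all chromosomes as a dashed line. Chromosome 11 stands highest at 53.0% and chromosome X lowest at 22.8%.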

How the data were processed

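CUT&Tag peak lists of H3K18la in mESC-ser and mESC-2i were analysed, with 5 lists of other marks in these cells and the H3K18la lists of 6 other cell types, 13 of the 24 deposited lists. The authors trimmed reads (Trim Galore 0.6.6), aligned them to mm10 (Bowtie2 2.4.4), computed coverage (bedtools 2.30), combined replicates and called peaks with SEACR 1.3 in stringent mode without a control, with versions from the submitters' processing notes. By the study, a top share of called peaks was selected, which is a relative cut. The smallest total signal of a peak was 23826 in the serum H3K18la list and 45771 in the 2i H3K18la list. The deposited signal columns, total and maximum fragment coverage per peak, hold whole numbers and were not scaled for depth. Read numbers per sample, in a supplementary table of the study, were read but not used in any value. A blacklist filter is mentioned only after peak calling, and removal of duplicates was not stated. The stem cell H3K4me3 and H3K27me3 lists without a medium in their name were taken as mESC-ser, since sample descriptions give them that medium.

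Peaks were merged at 1 bp of overlap. Promoters were 2000 bp around each TSS of 53843 GENCODE M21 genes on GRCm38, the build of mm10, and other regions were distal. For each medium, the rule named the 8 promoter and 8 distal regions of largest total signal among those holding 1 of the 5000 strongest peaks and no peak of the other list, 4 shared regions best ranked in both lists, 4 with the largest percentile change each way, and members of 16 gene lists (229 genes, all found in the annotation). Regions were named by genes with a TSS within 2000 bp or, when distal, by the nearest protein-coding TSS. Values of some list members are not reported here. The members and lists were chosen with earlier results of these data known. Interval functions were checked against bedtools on simulated peaks. Alternatives were the 5000 strongest peaks by total or maximum signal, equal called bases, stricter overlap, bridging of gaps, other promoter definitions and, added after seeing the data, exclusion of chromosome 11, the 2i H3K27me3 difference and windows of equal GC content. Python 3.11.15, numpy 2.4.6, pandas 2.3.3, scipy 1.17.1 and matplotlib 3.10.9 were used.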

Additional observations from a re-analysis of the deposited data

Results flagged for a closer look

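Peaks on chromosome Y, which the comparison did not use, numbered 6 in the serum H3K18la list and 20 in the 2i list, above the 3 counts that a count of 0 allows. No group held enough separate values to look for samples far from the others.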

How the results depend on the processing

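No paired analysis was possible because each H3K18la list compared pools its 2 replicates, and leaving out a replicate was not run for the same reason. The serum H3K27ac list came from 1 sample. With the 5000 peaks of largest total signal, shared regions were 45.2%, serum-only and 2i-only regions 1572 and 2009, serum-only and 2i-only genes 1104 and 1873, and the differences were 18.7 points for the promoter share, 41.9 for serum H3K27ac, 11.3 for 2i H3K4me3, -2.77 for serum H3K27me3 and -16.8 for 2i H3K27me3. With the 5000 of largest maximum signal these were 43.5%, 1703 and 2068, 1007 and 1688, 15.2, 33.9, 16.0, 1.83 and -8.97. With equal called bases, which removes 2i peaks alone, they were 35.8%, 10344 and 1215, 5319 and 976, 16.5, 32.8, -6.27, -3.80 and -12.4. Signs thus changed for serum H3K27me3 under the second setting and for 2i H3K4me3 under the third; the cause was not tested. Bridging gaps under 1000 bp gave 51.3% shared and -20.7 points for 2i H3K27me3. Promoters of 1000 bp gave a promoter share difference of 22.1 points, and TSS of protein-coding transcripts alone gave 993 serum-only and 1979 2i-only genes, fewer by construction, against 1684 and 3637 over all annotated genes. Without chromosome 11, 49.2% of regions were shared. The promoter share, serum H3K27ac and 2i H3K27me3 differences kept their sign under every alternative run. Depth, which was higher in 2i by the quality table of the study and which no setting here equalises, limits statements on a peak called in 1 medium to its not having been called in the other.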

Other observations

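Of the 12 largest percentile changes each way at promoters with H3K18la in both lists, some of those at genes outside the lists are given here, picked after the values were seen. The strongest promoter peak of a gene was taken in each list, and those of the lists may lie in different regions. Towards 2i, Aqp7, for a glycerol channel, stood at 1.55 in serum and 96.6 in 2i, the homeobox gene Nkx6-3 at 2.35 and 97.4, and Rbfox2, for a splicing regulator, at 3.06 and 91.7. Towards serum, Dlg4, for a postsynaptic scaffold protein, stood at 95.3 in serum and 7.00 in 2i, Zdhhc20, for a palmitoyltransferase, at 89.2 and 6.27, and Steap2, for a metalloreductase, at 91.9 and 15.1.

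Among serum-only promoter regions with H3K27me3 in 2i alone, further ones were at Ece1, for an endothelin-converting enzyme, at percentile 92.1, and Spata13, for an exchange factor of small GTPases, at 91.6. Among 2i-only promoter regions with H3K27me3 in serum alone, further ones were at Cd244a, a receptor gene of natural killer cells, at percentile 94.4, Ube2l6, for an enzyme of ISG15 conjugation, at 93.4, and Sorcs2, for a sortilin-like receptor, at 93.1.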
